A study of Mus musculus with 9 samples.

Results

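The 9 genes described here are the FOXO transcription factors Foxo1, Foxo3 and Foxo4 together with 6 regulators of the PI3K and mTORC1 pathway, namely Tsc1, Tsc2, Mtor, Rptor, Ddit4 and Sesn1. They were chosen by name, as FOXO factors and mTORC1 regulators, out of 46078 genes in the count data, with earlier results of these data known. Each was present in all libraries. Expression was measured by poly-A RNA-seq in 9 libraries of EGFP-SSC, a mouse spermatogonial stem cell (SSC) line of wild-type genotype that carries green fluorescent protein, with 3 biological replicates at 0 h, 24 h and 48 h of differentiation. The 0 h cells were in normal culture, on feeders of mouse embryonic fibroblasts exposed to mitomycin C, in StemPro-34 medium that held GDNF, basic fibroblast growth factor, epidermal growth factor, insulin, transferrin, beta-estradiol and progesterone. The 24 h and 48 h cells had been mixed in equal proportion with testicular somatic cells from busulfan-exposed mice aged 3 to 7 days, whose germ cells busulfan depletes, and kept in alpha-MEM with knockout serum replacement, BMP-4/7, retinoic acid, activin A, testosterone, FSH and bovine pituitary extract before sorting for green fluorescence. The sample descriptions state this sort for the 24 h and 48 h cells, while the study's text speaks of sorting at the different stages of culture, so whether the 0 h cells were sorted from their fibroblast feeders is not certain, which bears on the somatic marker levels below. All libraries come from 1 cell line, and co-culture, medium and time changed together between 0 h and the later times, so their parts cannot be told apart.

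FOXO factors are forkhead transcription factors that AKT, the kinase downstream of PI3K, phosphorylates and keeps out of the nucleus when growth factors are present. The same AKT relieves mTORC1, the growth-promoting kinase complex of MTOR and RPTOR, from the brake of the TSC1 and TSC2 complex, while DDIT4 and SESN1 are inhibitors of mTORC1 that cells make under stress. In the male germline, FOXO1 marks undifferentiated spermatogonia and is needed for their maintenance, GDNF signals through PI3K and AKT, and mTORC1 activity is linked to the exit from the stem cell state. These activities are set largely at the level of protein phosphorylation and location, which transcript counts do not measure.

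Following 24 h of co-culture, transcripts of Mtor, the kinase itself, were 2.21-fold higher than at 0 h, and those of both stress-induced inhibitors were lower, Ddit4 by 3.33-fold and Sesn1 by 1.92-fold. At 48 h Ddit4 stood 10.2-fold below 0 h, Sesn1 1.65-fold below it and Mtor 1.58-fold above it. Foxo1, Foxo3, Tsc1 and Tsc2 did not pass this test in any comparison, although Foxo1 and Tsc2 passed in 1 comparison each under some alternatives given below. All 9 genes passed the filter on low counts. Of them, 3 passed an adjusted p of 0.05 between 24 h and 0 h, 1 higher and 2 lower, where edgeR called 25.5% of all genes tested, 11.4% higher and 14.2% lower. Between 48 h and 0 h, 4 of the 9 passed, 2 higher and 2 lower, against 31.6% of all genes, 13.0% higher and 18.5% lower. Between 48 h and 24 h, 3 of the 9 passed, all lower, against 21.3% of all genes, 8.61% higher and 12.7% lower. Read against these shares of all genes, the counts over 9 genes are no result about the group as a whole. Their median log2 fold changes were 0.21, 0.03 and -0.17, and those of all genes tested were 0.0052, 0.017 and -0.0045. The 3 comparisons share libraries in pairs and are not independent of each other.

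**Figure D1:**
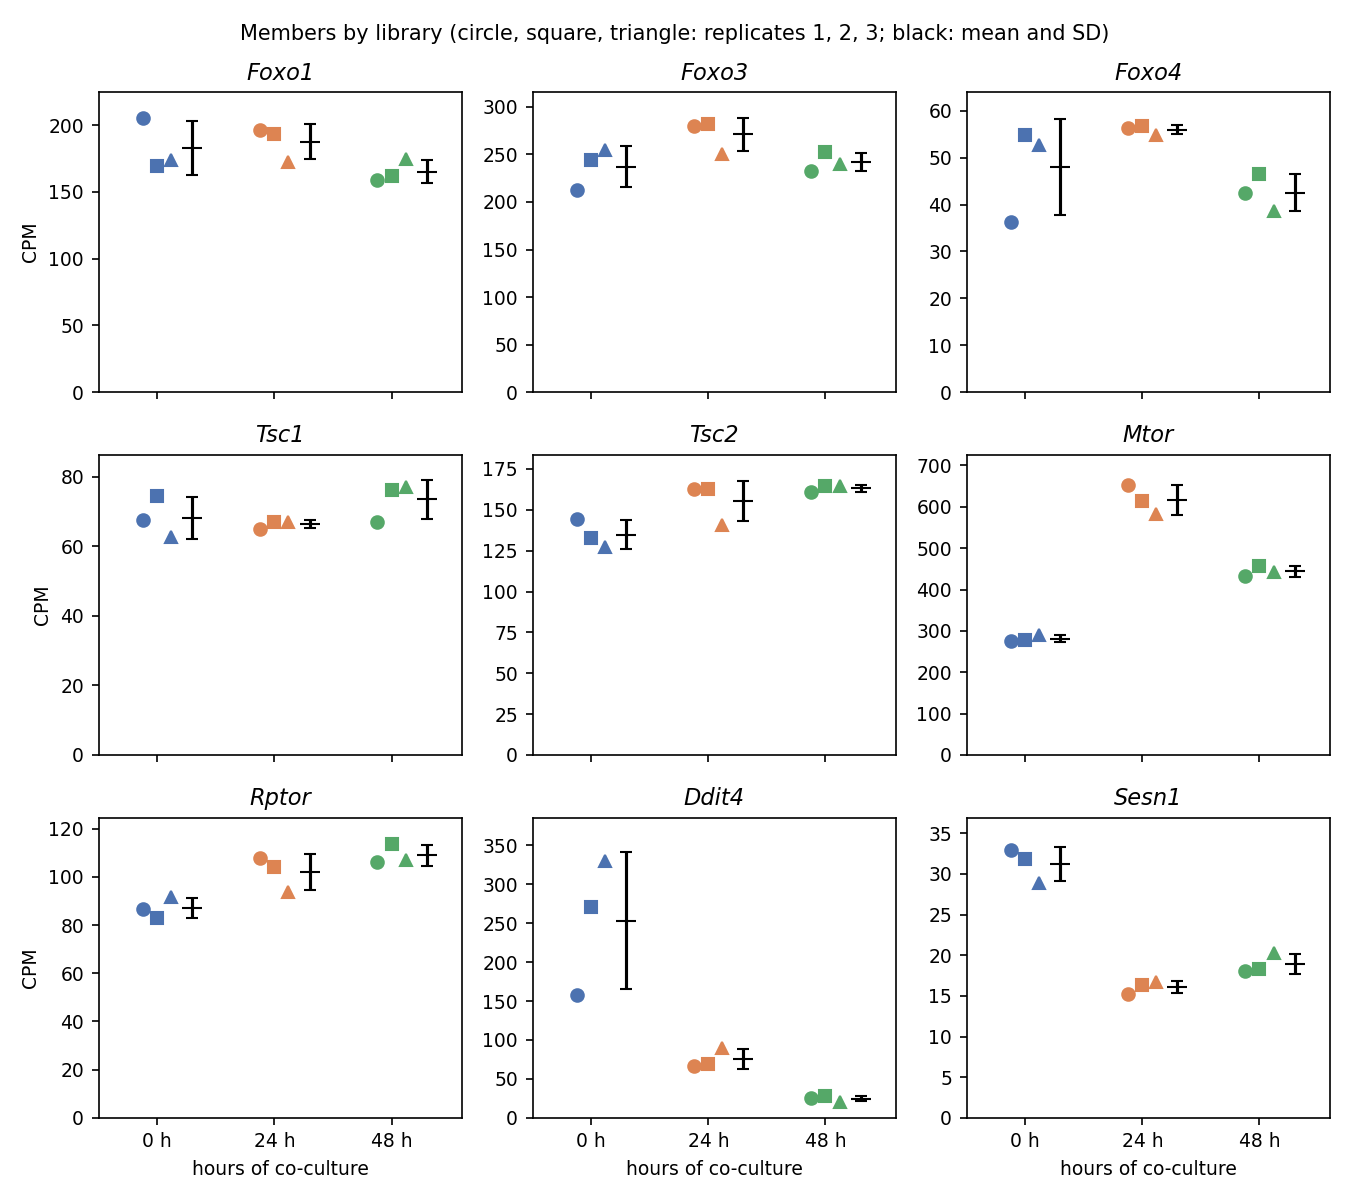
Level of each of the 9 genes in CPM (vertical axis, starting at 0) in the 3 libraries at each time of co-culture (horizontal axis), with the mean and SD in black. Mtor is highest at 24 h, Ddit4 steps down at both later times, and Sesn1 is lower at 24 h and 48 h than at 0 h.

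The libraries held 16825251 to 22201892 counts, and levels are given as CPM, counts scaled to a common library size, after TMM normalization. The lowest count of any of the 9 genes was 307, for Sesn1 in a 24 h library. The 0 h libraries differed from each other in the mean GC content of their counts (48.69%, 49.72% and 50.38%), over a wider range than the 24 h libraries (49.54% to 50.03%) and the 48 h libraries (48.95% to 49.76%). Summed levels of 10 germ cell markers overlapped between the times (2508 to 3414 CPM at 0 h, 3239 to 3396 at 24 h and 3284 to 3427 at 48 h), with Dazl, a germ cell RNA-binding protein gene, the highest of them. Some of the 10 did change. Against 0 h, Sohlh1, Piwil2 and Sall4 were called higher at 24 h. At 48 h, Sohlh1 and Piwil2 were called higher and Lin28a and Dnd1 lower than at 0 h. Lin28a, Dnd1 and Sall4 were called lower at 48 h than at 24 h. The summed levels of somatic markers moved with time. The 8 fibroblast markers went from 756 to 893 CPM at 0 h to 2712 to 3136 at 24 h and 3691 to 4012 at 48 h, the 6 myoid markers from 13.7 to 15.6 CPM to 146 to 207 and 263 to 321, the 10 Sertoli markers from 27.1 to 29.0 CPM to 76.5 to 130.4 and 118 to 133, and the 7 Leydig markers from 4.58 to 6.99 CPM to 28.7 to 44.8 and 29.1 to 37.3. The 6 endothelial markers went from 70.1 to 77.1 CPM down to 28.3 to 36.3 and 20.9 to 24.0, and the 6 macrophage markers from 15.5 to 18.3 CPM to 6.25 to 10.2 and 6.33 to 9.21. Single markers went against these sums. Against 0 h, Rhox5, Amhr2 and Sox9 of the 10 Sertoli markers were called lower at 24 h, and Rhox5 also at 48 h. Thy1 of the fibroblast markers was called lower at both times. Tek of the endothelial markers was called higher at both times and Csf1r of the macrophage markers at 24 h. The macrophage sum was mostly Cd68, and Csf1r was at 0.15 to 0.44 CPM at 0 h and 0.64 to 1.51 CPM at 24 h. In bulk samples such as these, fewer cells of a type and less RNA per cell cannot be told apart, and the part that other cell types have in the changes below was not tested.

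Ddit4 (ENSMUSG00000020108; GRCm38 chr10:59949669-59951834, minus strand), also known as REDD1, is a small protein made under hypoxia, DNA damage, glucocorticoids and energy stress that acts through the TSC complex to lower mTORC1 activity. It was at 157, 271 and 330.4 CPM in the 0 h libraries, at 67.0, 69.2 and 89.8 CPM at 24 h, and at 25.7, 27.8 and 20.9 CPM at 48 h. The 3 times did not overlap, and the 0 h libraries were the most spread, with the lowest still above every later library. The log2 fold change was -1.73 at 24 h against 0 h (SE 0.27, 95% interval -2.35 to -1.11, edgeR adjusted p = 0.00302), -3.35 at 48 h against 0 h (SE 0.29, interval -4.02 to -2.68, adjusted p = 0.000186) and -1.61 at 48 h against 24 h (SE 0.14, interval -1.92 to -1.31, adjusted p = 0.000187). Across the 0 h libraries Ddit4 followed the GC content of the counts, and when offsets for GC and length were added its log2 fold changes were -1.67, -3.06 and -1.40. Of the 9 genes, Ddit4 had the largest change in each comparison.

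The promoter of Ddit4 is shown because the level of this gene moved more than that of the other 8, with that of Sesn1, the other inhibitor that fell, and that of Mtor, which rose. Each stretch runs from 250 bases before the RefSeq transcription start to 50 bases after it, in GRCm38.p6, read 5′ to 3′ on the strand of the gene, and capitals mark a match to a searched motif. Ddit4 is chr10:59951721-59952020 on the minus strand, Sesn1 is the upstream one of 2 RefSeq starts at chr10:41810324-41810623 on the plus strand, and Mtor is chr4:148448332-148448631 on the plus strand.
Ddit4: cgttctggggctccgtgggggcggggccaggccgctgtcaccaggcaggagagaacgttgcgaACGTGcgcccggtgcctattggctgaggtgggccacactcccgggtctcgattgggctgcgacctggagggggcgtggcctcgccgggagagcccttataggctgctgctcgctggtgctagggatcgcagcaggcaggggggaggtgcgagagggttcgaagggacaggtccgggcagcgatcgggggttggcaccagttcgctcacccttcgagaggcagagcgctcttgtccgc
Sesn1: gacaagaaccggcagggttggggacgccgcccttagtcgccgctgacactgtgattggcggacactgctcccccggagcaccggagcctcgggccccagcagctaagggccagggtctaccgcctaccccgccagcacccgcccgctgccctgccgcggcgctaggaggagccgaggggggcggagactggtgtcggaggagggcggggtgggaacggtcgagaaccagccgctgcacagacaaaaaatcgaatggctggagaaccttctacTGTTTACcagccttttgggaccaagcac
Mtor: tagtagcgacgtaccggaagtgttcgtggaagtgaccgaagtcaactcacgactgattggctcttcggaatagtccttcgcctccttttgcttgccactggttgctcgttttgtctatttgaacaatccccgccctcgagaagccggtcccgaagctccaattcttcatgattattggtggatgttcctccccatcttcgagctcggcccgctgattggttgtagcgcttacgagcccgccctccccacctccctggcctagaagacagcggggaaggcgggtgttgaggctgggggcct

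The motifs searched on both strands were the FOXO site GTAAACA, which 3.65% of 32851 promoters hold, the E-box CACGTG (7.15%), the composite ATF4 site TGATGNAA (3.97%), the hypoxia core ACGTG, which every CACGTG contains (19.6%), the cyclic AMP response element TGACGTCA (1.79%), the TATA box TATAAA (13.6%) and the retinoic acid response element of the DR5 type (0.0761%). The capitals in Ddit4 are a hypoxia core that begins at position -187 from the start. Those in Sesn1 are a FOXO site on the opposite strand, at position 22. The Mtor window held none of these motifs. Among the other members with an entry, Rptor held a hypoxia core at position -34, and the windows of Foxo1, Foxo3, Tsc1 and Tsc2 and the downstream window of Sesn1 held none. Foxo4 had no entry, so 8 of the 9 genes were searched. These are matches of letters in 1 short window, and none of them was tested for binding.

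Sesn1 (ENSMUSG00000038332; chr10:41809935-41908424, plus strand) encodes sestrin 1, an inhibitor of mTORC1 that acts through the GATOR complexes and AMPK and is a known target of p53 and of FOXO factors. It was at 32.9, 31.8 and 28.9 CPM at 0 h, at 15.3, 16.4 and 16.7 CPM at 24 h, and at 18.0, 18.4 and 20.3 CPM at 48 h. The later libraries all lay below those of 0 h, and the 48 h libraries all lay above those of 24 h. The log2 fold change was -0.94 at 24 h (SE 0.12, interval -1.21 to -0.67, edgeR adjusted p = 0.0011) and -0.72 at 48 h (SE 0.11, interval -0.99 to -0.45, adjusted p = 0.003), both against 0 h. Between 48 h and 24 h it was 0.22 (interval 0.01 to 0.42, adjusted p = 0.116) and did not pass.

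Relatives of the 2 inhibitors did not follow them past the test. Sesn2, at 58.6 to 73.9 CPM at 0 h, had log2 differences of 0.26 after 24 h and 0.14 after 48 h (edgeR adjusted p = 0.18 and 0.418). Sesn3, at 42.0 to 46.4 CPM at 0 h, had 0.05 and 0.13 (adjusted p = 0.794 and 0.409). The interval of Sesn2 at 24 h, -0.03 to 0.56, and that of Sesn3, -0.20 to 0.30, lie above that of Sesn1. Ddit4l, the relative of Ddit4, was near 1 CPM at 0 h and at 1.47 to 2.46 CPM at 48 h, with a log2 fold change of 1.05 (interval 0.26 to 1.85, adjusted p = 0.0517).

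Mtor (ENSMUSG00000028991; chr4:148448611-148557683, plus strand) is the catalytic subunit of both mTOR complexes. It was at 276, 277 and 291 CPM at 0 h, at 653, 615 and 582 CPM at 24 h, and at 432, 457 and 443 CPM at 48 h. The 3 times did not overlap, and 24 h was the highest. The log2 fold change was 1.15 at 24 h against 0 h (SE 0.10, interval 0.91 to 1.39, edgeR adjusted p = 0.000268), 0.66 at 48 h against 0 h (SE 0.09, interval 0.44 to 0.87, adjusted p = 0.0017) and -0.48 at 48 h against 24 h (SE 0.07, interval -0.63 to -0.34, adjusted p = 0.0015). Between 0 h and 24 h, where Mtor rose, the summed fibroblast, myoid, Sertoli and Leydig markers were higher in every 24 h library than in any 0 h library. The endothelial and macrophage sums were lower. Between 24 h and 48 h, where Mtor fell, the fibroblast and myoid sums were higher in every 48 h library than in any 24 h library. The endothelial sum was lower, and the Sertoli, Leydig and macrophage sums overlapped. The part of such cells in the level of Mtor was not tested in either interval.

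Rptor (ENSMUSG00000025583; chr11:119602905-119899576, plus strand), the scaffold that brings substrates to mTORC1, moved less than Mtor. It was at 86.8, 83.0 and 91.6 CPM at 0 h, at 108, 104 and 93.7 CPM at 24 h, and at 106, 114 and 107 CPM at 48 h. All later libraries lay above those of 0 h. The log2 fold change was 0.24 at 24 h (interval -0.02 to 0.50, edgeR adjusted p = 0.159) and 0.32 at 48 h (SE 0.10, interval 0.09 to 0.56, adjusted p = 0.0453), so Rptor was called at 48 h alone. That call was lost without 0 h replicate 1 or 2 and without any 1 of the 48 h replicates. An antisense gene, Rptoros, shares 1.33% of the longest Rptor transcript, and as the strand setting of the counting was not stated, its reads cannot be told apart from those of Rptor there.

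Since Mtor and Rptor did not change alike, their ratio per length moved. The ratio of Rptor to Mtor in FPKM, CPM per kilobase of exons, was 0.236, 0.225 and 0.236 at 0 h, 0.124, 0.127 and 0.121 at 24 h, and 0.184, 0.187 and 0.181 at 48 h. The 3 times did not overlap, and each pair of times gave p = 0.1 in a two-sided exact permutation test, the smallest p that 3 against 3 libraries allow. With the longest transcript as gene length the means were 0.402, 0.215 and 0.319, in the same order.

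**Figure D2:**
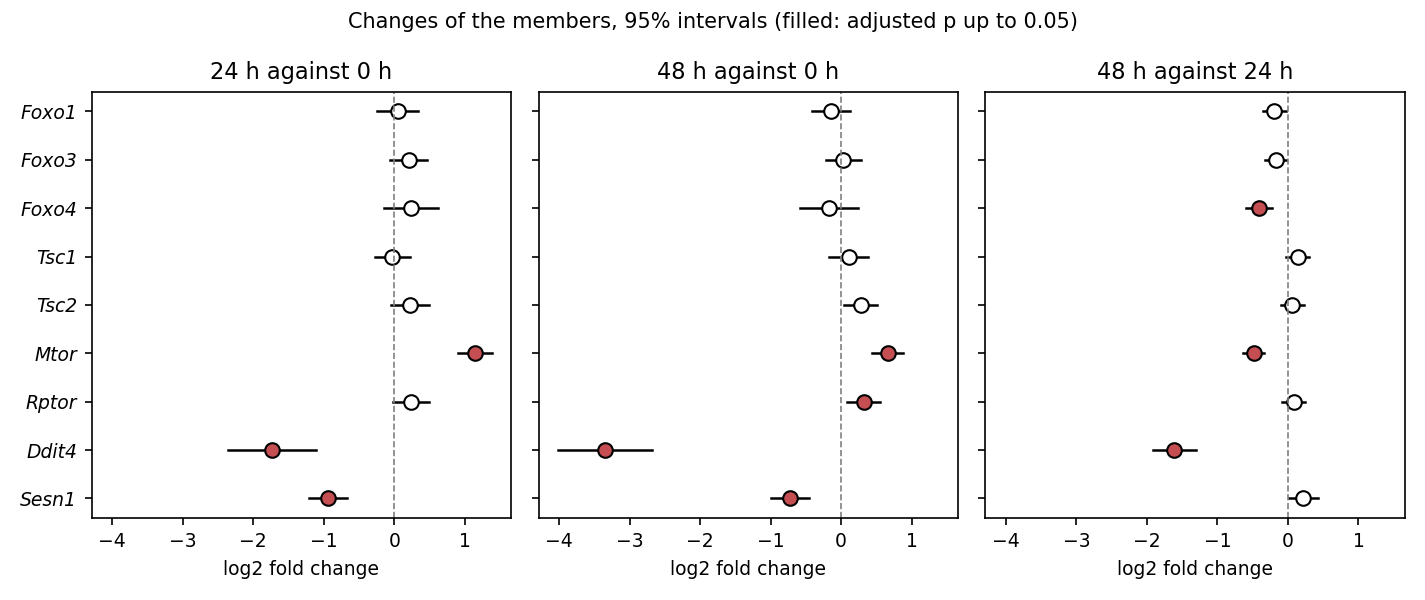
Log2 fold change (horizontal axis) of each of the 9 genes with its 95% interval in the 3 comparisons, with genes at an adjusted p of up to 0.05 filled. Ddit4 lies farthest from 0 in all 3 panels, Mtor lies above 0 in both comparisons with 0 h and below 0 at 48 h against 24 h, and Foxo4 passes at 48 h against 24 h alone.

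Tsc1 (ENSMUSG00000026812; chr2:28641228-28691167, plus strand) and Tsc2 (ENSMUSG00000002496; chr17:24595816-24632630, minus strand) form the complex that inactivates RHEB, the small GTPase that switches mTORC1 on. Tsc1 was at 67.7, 74.6 and 62.6 CPM at 0 h, at 65.1, 67.2 and 66.9 CPM at 24 h, and at 67.2, 76.3 and 77.3 CPM at 48 h. Its libraries at 0 h overlapped with both later times. Its log2 fold changes were -0.03, 0.11 and 0.14 (edgeR adjusted p = 0.891, 0.541 and 0.211), with an interval of -0.28 to 0.23 at 24 h against 0 h, -0.17 to 0.39 at 48 h against 0 h and -0.03 to 0.30 at 48 h against 24 h. A change of Tsc1 by more than about 1.31-fold at 48 h against 0 h thus lies outside the interval.

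Tsc2 was at 145, 132 and 127 CPM at 0 h, at 163, 163 and 141 CPM at 24 h, and at 161, 165 and 164 CPM at 48 h. The 48 h libraries all lay above those of 0 h. Its log2 fold changes were 0.22, 0.28 and 0.06 (edgeR adjusted p = 0.21, 0.0714 and 0.586), and the interval at 48 h against 0 h was 0.04 to 0.51. An exon of Pkd1 on the opposite strand overlaps Tsc2 and shares 11.1% of its longest transcript. The ratio of Tsc1 to Tsc2 in FPKM was 0.413 ± 0.040 (SD, n = 3) in 0 h SSCs, 0.349 ± 0.032 after 24 h and 0.366 ± 0.023 after 48 h, with p = 0.2, 0.2 and 0.5 in exact permutation tests.

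The other parts of the 2 complexes moved in both directions. Tbc1d7, the third subunit of the TSC complex, was at 26.2, 27.5 and 30.1 CPM at 0 h and lower in every later library, with a log2 fold change of -0.61 after 24 h and -0.74 after 48 h (edgeR adjusted p = 0.00755 and 0.0024). Rheb, at 67.1 to 77.7 CPM at 0 h and 79.0 to 82.8 CPM at 48 h, had log2 fold changes of 0.15 and 0.14 (adjusted p = 0.358 and 0.37). Akt1s1, which encodes the mTORC1 inhibitor PRAS40, rose by 0.73 and 0.81 (adjusted p = 0.0128 and 0.0154). Deptor, an inhibitor of both mTOR complexes, fell by 1.12 and 1.10 on the log2 scale (edgeR adjusted p = 0.0198 and 0.0205). Its 0 h libraries were widely spread, with a mean of 27.9 and an SD of 10.0 CPM. Mlst8, a subunit of both complexes, had a log2 fold change of 0.35 at 24 h (adjusted p = 0.111) and rose by 0.49 at 48 h (adjusted p = 0.0323).

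Foxo1 (ENSMUSG00000044167; chr3:52268336-52353221, plus strand), the FOXO factor best known in spermatogonia, was at 206, 169 and 174 CPM at 0 h, at 197, 193 and 172 CPM at 24 h, and at 159, 162 and 175 CPM at 48 h. Its libraries overlapped between all times. The log2 fold changes were 0.05, -0.15 and -0.19 (edgeR adjusted p = 0.818, 0.385 and 0.088), with intervals of -0.24 to 0.34 at 24 h against 0 h, -0.42 to 0.13 at 48 h against 0 h and -0.36 to -0.03 at 48 h against 24 h. The last of these changes passed once offsets for GC and length were added, at -0.26 (adjusted p = 0.0168). The antisense gene Gm20402 shares 7.79% of its transcript. Foxo3 (ENSMUSG00000048756; chr10:42181841-42276755, minus strand) was at 213, 244 and 255 CPM at 0 h, at 279.8, 282 and 251 CPM at 24 h, and at 233, 252 and 240.3 CPM at 48 h, and its libraries also overlapped. Its log2 fold changes were 0.21, 0.03 and -0.17 (adjusted p = 0.232, 0.868 and 0.097), with an interval of -0.22 to 0.28 at 48 h against 0 h.

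Foxo4 (ENSMUSG00000042903; chrX:101254528-101260873, plus strand) was at 36.3, 54.9 and 52.8 CPM at 0 h, at 56.3, 56.7 and 54.9 CPM at 24 h, and at 42.5, 46.5 and 38.7 CPM at 48 h. All 48 h libraries lay below all 24 h libraries. The 0 h libraries also lay below those of 24 h, the highest of them by less than the rounding of these values, and overlapped with those of 48 h. The log2 fold change at 48 h against 24 h was -0.41 (SE 0.08, interval -0.59 to -0.22, edgeR adjusted p = 0.0082), and that against 0 h was 0.24 at 24 h and -0.17 at 48 h (adjusted p = 0.354 and 0.505). With offsets for GC content and length the last value was 0.09, of the opposite sign. The change at 24 h against 0 h passed with them at 0.32 (edgeR adjusted p = 0.0445), the only 1 of 15 alternatives in which it did. With a replicate block added to the offsets it did not pass (edgeR adjusted p = 0.0689). The called change at 48 h against 24 h was -0.24 with the offsets (edgeR adjusted p = 0.0381), a smaller value than without them.

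Foxo6, the remaining FOXO gene of the mouse, was at 79.2, 136 and 174 CPM at 0 h, at 54.6, 54.6 and 48.6 CPM at 24 h, and at 43.1, 49.0 and 39.8 CPM at 48 h. Every later library lay below those of 0 h, which were widely spread. Its log2 fold change was -1.29 at 24 h (edgeR adjusted p = 0.0105) and -1.56 at 48 h (adjusted p = 0.00462). Foxo6 has a GC content of 69.1% and, like Ddit4, followed the GC content of the 0 h libraries. With the GC and length offsets the values were -1.61 and -1.73.

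Per length, Foxo6 made up 32.7%, 43.5% and 49.1% of the summed FPKM of the 4 FOXO genes at 0 h, 21.6%, 21.6% and 21.3% at 24 h, and 21.2%, 22.3% and 19.4% at 48 h. Foxo3 went from 30.4%, 27.0% and 24.9% at 0 h to 38.2%, 38.5% and 37.9% at 24 h and 39.6%, 39.6% and 40.6% at 48 h, and was the largest share in every later library. The share of Foxo4 was 11.9% ± 1.1 (SD, n = 3) in 0 h SSCs, 17.2% ± 0.73 after 24 h and 15.2% ± 0.92 after 48 h. The libraries did not overlap between 0 h and the later times for Foxo3, Foxo4 and Foxo6, each with the smallest exact permutation p of 0.1. The share of Foxo1 was 18.9% ± 5.9 in 0 h SSCs, 23.1% ± 0.35 after 24 h and 23.9% ± 1.8 after 48 h and overlapped (exact p = 0.4 and 0.3 against 0 h). Since the shares sum to a fixed total, the higher shares of Foxo3 and Foxo4 stand beside a lower level of Foxo6 and, without the GC and length offsets, not beside a called rise of their own levels against 0 h. With the offsets alone, Foxo4 was called higher at 24 h, as given above, but in no other alternative.

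**Figure D3:**
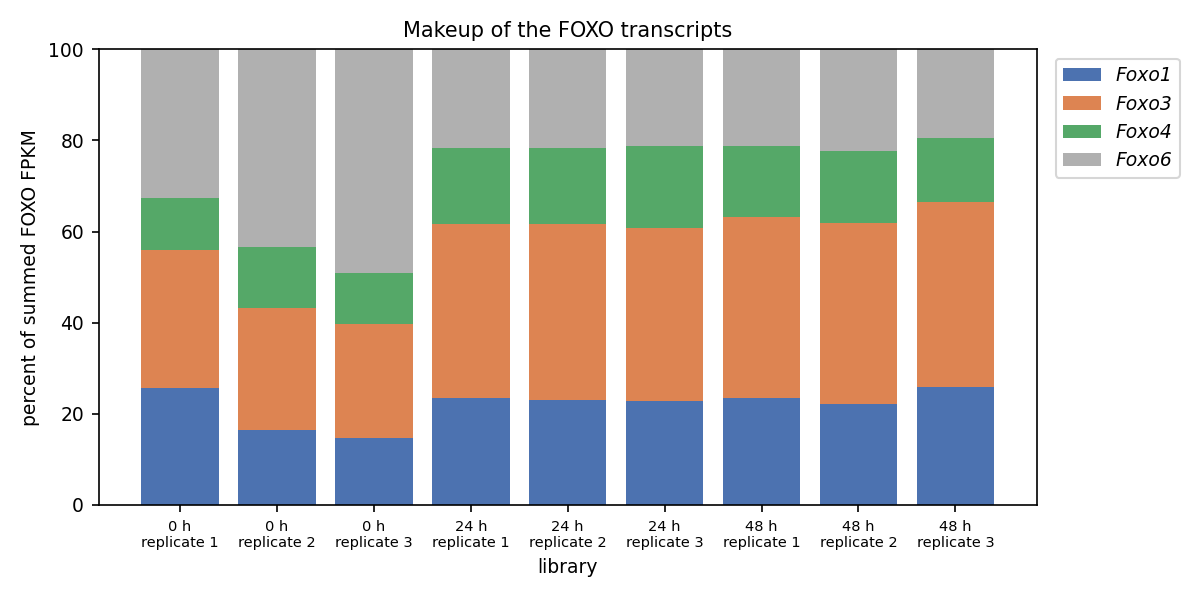
Share of each FOXO gene in the summed FPKM of Foxo1, Foxo3, Foxo4 and Foxo6 (vertical axis, percent) in each of the 9 libraries. Foxo6 takes 32.7% to 49.1% at 0 h and 19.4% to 22.3% at the later times, and the 3 libraries at 0 h differ most.

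In order of level per length, Ddit4 led at 0 h with 144 ± 50.1 FPKM (SD, n = 3), followed by Foxo3 (31.3 ± 2.9) and Mtor (27.8 ± 0.85), whose ranges overlapped, and Foxo1 (21.1 ± 2.3). Tsc2 (14.0 ± 0.93) and Foxo4 (13.8 ± 2.9) overlapped, Sesn1 stood at 7.84 ± 0.52, and Rptor (6.47 ± 0.32) and Tsc1 (5.77 ± 0.51) overlapped at the end. At 24 h Mtor led with 61.0 ± 3.5 FPKM before Ddit4 (42.9 ± 7.1), Foxo3 (35.8 ± 2.3) and Foxo1 (21.6 ± 1.5). Tsc2 (16.2 ± 1.3) and Foxo4 (16.1 ± 0.27) overlapped again, and Rptor (7.57 ± 0.55), Tsc1 (5.61 ± 0.09) and Sesn1 (4.05 ± 0.19) followed without overlap. At 48 h the order was Mtor (43.9 ± 1.3), Foxo3 (31.9 ± 1.3), Foxo1 (19.1 ± 0.98), Tsc2 (17.0 ± 0.22), Ddit4 (14.1 ± 2.0) and Foxo4 (12.2 ± 1.1), which overlapped with Ddit4, then Rptor (8.09 ± 0.32), Tsc1 (6.22 ± 0.47) and Sesn1 (4.75 ± 0.30). By these values, Ddit4 went from the first place to the fifth and Sesn1 from the seventh to the ninth. The places depend on the length chosen for each gene. The longest transcript shortens Rptor from 13471 to 6594 bases, Tsc1 from 11833 to 7702 and Tsc2 from 9620 to 6266. It shortens Sesn1 only from 3982 to 3809 and leaves Ddit4 at 1755 and Foxo1 at 8665. On that length the mean of Sesn1 would be the lowest at 0 h already, and that of Ddit4 would lie below Rptor at 48 h. The mean of Tsc2 would lie above that of Foxo1 at each time.

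The 5 genes whose log2 CPM followed Ddit4 most closely over the 9 libraries, among 10341 genes with a mean of at least 10 CPM, were Pfkl (Pearson r = 0.998), Ccdc8 (0.996), Lfng (0.995), Espn (0.995) and Idh3b (0.995). Pfkl, the liver-type phosphofructokinase of glycolysis, had means of 187, 83.7 and 38.5 CPM at 0 h, 24 h and 48 h. Lfng, a glycosyltransferase that modifies Notch receptors, had 33.6, 13.9 and 6.90 CPM, and Idh3b, a subunit of the isocitrate dehydrogenase of the citric acid cycle, had 74.1, 56.8 and 43.3 CPM. The points of these correlations share their libraries and the order of the 3 times, and many genes fell over the same times.

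Other genes tied to the stresses known to act on Ddit4 and Sesn1 were described from the same fits. The lists were chosen with earlier results of these data known, and none was tested as a set. Of all genes tested, 25.5% were called at 24 h and 31.6% at 48 h, each against 0 h. Between 48 h and 24 h it was 21.3%. The counts in this and the following lists are to be read against these shares. Of 11 hypoxia genes tested, Hif1a itself included, 6 fell and 1 rose at 24 h, and 9 fell and none rose at 48 h. Both are against 0 h, with median log2 fold changes of -0.64 and -1.24, where 14.2% and 18.5% of all genes tested fell. Adm, the vasodilator adrenomedullin, was at 43.8 ± 4.4 CPM (SD, n = 3) in 0 h SSCs and at 5.12 ± 1.4 and 2.08 ± 0.12 CPM in the later cells, which is a log2 fold change of -3.08 by 24 h and -4.40 by 48 h (edgeR adjusted p = 6.7e-05 and 5.7e-06). Bnip3, a mitophagy receptor, rose by 0.59 at 24 h (adjusted p = 0.0197). Between 48 h and 24 h, 10 of the 11 fell, with a median of -0.77, and Vegfa, the angiogenic growth factor, fell the most at -1.35 (adjusted p = 0.000192).

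Of 12 p53 genes, Trp53 itself included, 5 fell and none rose at 24 h (median -0.21), 4 fell and 2 rose at 48 h (median -0.32), and 1 fell and 2 rose between 24 h and 48 h (median 0.17). Zmat3, an RNA-binding p53 target, fell by 1.49 at 24 h and by 1.23 at 48 h on the log2 scale (edgeR adjusted p = 0.000272 and 0.000538). Ccng1, which encodes cyclin G1, rose by 0.76 at 48 h against 0 h (adjusted p = 0.0353) and by 0.56 against 24 h (adjusted p = 0.0111), and Tigar fell by 0.32 between 24 h and 48 h (adjusted p = 0.0162). The number of lower genes in this list went from 3 to 6 over the alternatives at each of 24 h and 48 h against 0 h. It was 3 at 24 h without 0 h replicate 2 or any 1 of the 24 h replicates, and the same held at 48 h without 0 h replicate 2 or any 1 of the 48 h replicates, where 3 genes were called in all. Between 24 h and 48 h, 1 gene of the list was called without 24 h replicate 1 or 3 or without 48 h replicate 1 or 3.

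Of 12 genes of the ATF4 stress response, 1 rose and 1 fell at 24 h, 2 rose and 3 fell at 48 h, and 1 rose and 6 fell between 24 h and 48 h, with medians of 0.08, -0.18 and -0.27. Cebpb, a bZIP transcription factor, rose by 1.30 at 24 h (edgeR adjusted p = 0.0165) and fell by 1.28 from there to 48 h (adjusted p = 0.000166). Phgdh, the first enzyme of serine synthesis, fell by 0.82 at 24 h (adjusted p = 0.0137). At 48 h against 0 h, Aldh1l2, a mitochondrial folate enzyme, rose by 1.27 (adjusted p = 0.0313) and the lipoprotein receptor gene Vldlr fell by 1.78 (adjusted p = 0.000439). Asns, the asparagine synthetase, rose by 0.50 between 24 h and 48 h (adjusted p = 0.00632).

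Of 8 glucocorticoid genes, the receptor gene Nr3c1 included, 1 rose and 2 fell at 24 h, and 2 rose and 3 fell at 48 h. In between, 1 rose and 2 fell, and the medians were -0.04, -0.02 and -0.04. Tsc22d3, which encodes the glucocorticoid-induced leucine zipper, rose by 0.63 and 0.68 (edgeR adjusted p = 0.00758 and 0.00467) against 0 h. The phosphatase gene Dusp1 fell by 0.74 at 24 h (adjusted p = 0.00583), and Zfp36, which encodes an mRNA-destabilizing protein, fell by 1.16 at 48 h (adjusted p = 0.00613) and by 0.60 between 24 h and 48 h (adjusted p = 0.012). The kinase gene Sgk1, whose product also phosphorylates FOXO factors, rose by 0.44 between 24 h and 48 h (adjusted p = 0.0127).

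**Figure D4:**
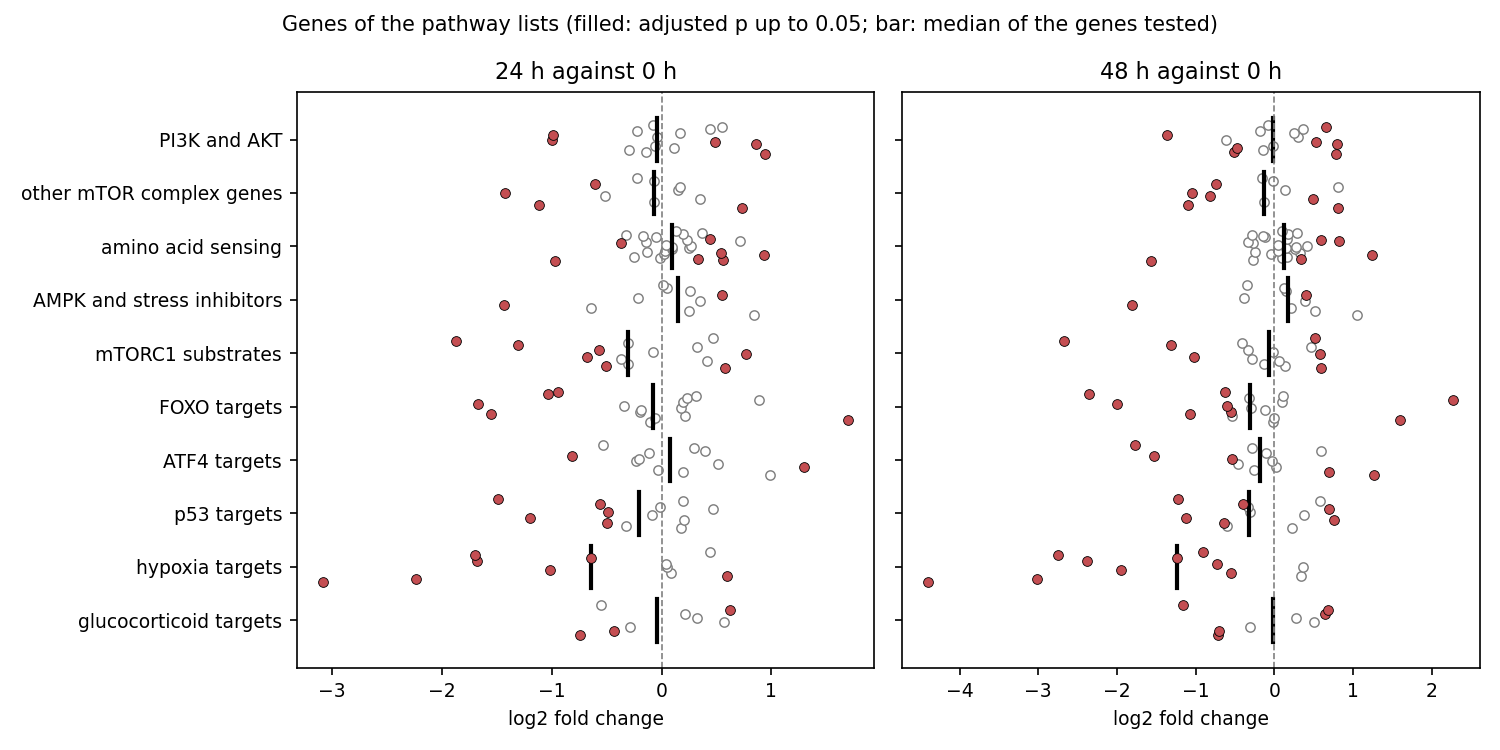
Log2 fold change (horizontal axis) of each tested gene in the 10 pathway lists (vertical axis) at 24 h and 48 h against 0 h, with genes at an adjusted p of up to 0.05 filled and a bar at the median of each list. The medians of the hypoxia list, -0.64 and -1.24, lie farthest from 0, and every list holds points on both sides.

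Known targets of FOXO factors were called in both directions. Of 16 tested, 1 rose and 4 fell at 24 h (median -0.08), and 2 rose and 6 fell at 48 h (median -0.31). Between 24 h and 48 h, 2 rose and 5 fell (median -0.15). Of all genes tested, 25.5%, 31.6% and 21.3% were called in these comparisons, and the list was not tested as a set. Irs2, the insulin receptor substrate, went from 47.3 ± 2.2 CPM (SD, n = 3) at 0 h to 14.7 ± 1.3 at 24 h, a log2 fold change of -1.67 (edgeR adjusted p = 0.000107). Trim63, a ubiquitin ligase of muscle atrophy, fell by 2.36 at 48 h (adjusted p = 0.000338). Bcl6, a transcriptional repressor, rose by 1.70 at 24 h and 1.59 at 48 h (adjusted p = 0.00127 and 0.000735) from a low level of 2.33 ± 0.26 CPM. Txnip, an inhibitor of thioredoxin and glucose uptake, rose by 0.32 between 24 h and 48 h (adjusted p = 0.00761). Against 0 h it was called lower at both times, with means of 258, 133 and 167 CPM at 0 h, 24 h and 48 h. Ccng2, which encodes cyclin G2, fell by 0.75 between 24 h and 48 h (adjusted p = 0.00106).

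Upstream, of 15 genes of PI3K and AKT signalling tested out of 16, 3 rose and 2 fell at 24 h, 4 rose and 3 fell at 48 h, and 2 rose and 3 fell in between, with medians of -0.04, -0.01 and 0.04. Akt1 rose from 92.9 ± 19.3 CPM to 177 ± 4.5 at 24 h, a log2 fold change of 0.94 (edgeR adjusted p = 0.00396). Pik3ca, a catalytic subunit of PI3K, was widely spread at 0 h, at 78.7 ± 26.6 CPM against 39.2 ± 1.1 at 24 h. It fell by 0.99 at 24 h (edgeR adjusted p = 0.0218) and rose by 0.38 from there to 48 h (edgeR adjusted p = 0.0267). Pik3cd, another catalytic subunit, fell by 1.36 at 48 h against 0 h (adjusted p = 0.000112), and Phlpp1, a phosphatase of AKT, rose by 0.80 (adjusted p = 0.00146). Inpp5d, which encodes the lipid phosphatase SHIP1, fell by 0.59 between 24 h and 48 h (adjusted p = 0.00864).

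Among 26 genes of amino acid sensing, which carry nutrient signals to mTORC1 at the lysosome, 5 rose and 2 fell at 24 h, 4 rose and 1 fell at 48 h, and 3 rose and 3 fell in between, with medians of 0.10, 0.12 and 0.0032. Fnip2, a partner of folliculin, rose by 0.94 and 1.25 against 0 h (edgeR adjusted p = 0.00388 and 0.000672). Castor1, the arginine sensor that restrains mTORC1, fell by 0.97 and 1.56 (adjusted p = 0.00642 and 0.000776). Its relative Castor2 rose by 0.56 at 24 h against 0 h (adjusted p = 0.016) and fell by 0.83 between 24 h and 48 h (adjusted p = 0.000225). Fnip1 rose by 0.41 between 24 h and 48 h (adjusted p = 0.0345).

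Of 10 genes of AMPK, its activator LKB1 and the remaining stress-induced inhibitors, 1 rose and 1 fell at each of 24 h and 48 h against 0 h, and 1 rose and 2 fell in between, with medians of 0.15, 0.18 and -0.03. Prkab1, a regulatory subunit of AMPK, fell by 1.44 and 1.81 against 0 h and by 0.37 between 24 h and 48 h (edgeR adjusted p = 0.00027, 9.2e-05 and 0.027). Prkag2, another regulatory subunit, rose by 0.55 and 0.40 (adjusted p = 0.0159 and 0.0497). The catalytic subunit gene Prkaa2 rose by 0.85 between 24 h and 48 h (adjusted p = 0.0206), at 3.46 ± 0.68 and 6.29 ± 1.2 CPM (SD, n = 3).

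Downstream, of 14 genes for substrates and effectors of mTORC1, 2 rose and 5 fell at 24 h, 3 rose and 3 fell at 48 h, and 1 rose and 2 fell in between, with medians of -0.31, -0.07 and 0.03. Tfeb, the lysosomal transcription factor that mTORC1 keeps in the cytoplasm, stood at 81.9 ± 17.8 CPM in 0 h SSCs, 22.2 ± 1.2 after 24 h and 12.8 ± 3.0 after 48 h. The log2 fold changes of Tfeb were -1.87, -2.67 and -0.80 at 48 h against 24 h (edgeR adjusted p = 0.000304, 0.000197 and 0.00602). Maf1, a repressor of RNA polymerase III, rose by 0.77 at 24 h (adjusted p = 0.0152), and Atg13, a subunit of the autophagy-starting kinase complex, rose by 0.60 at 48 h (adjusted p = 0.0055). Eif4b, a translation initiation factor, went from 329 ± 15 CPM at 24 h to 516 ± 18 at 48 h, a rise of 0.64 (adjusted p = 0.000293). Its mean at 0 h was 471 CPM, and it was called lower at 24 h than at 0 h.

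Of 11 genes for the remaining subunits and partners of the mTOR complexes, 1 rose and 3 fell at 24 h, 2 rose and 4 fell at 48 h, and 1 rose and 1 fell in between, with medians of -0.07, -0.13 and 0.06. The largest rise and fall against 0 h were those of Akt1s1 and Deptor given above, among genes with a mean of at least 5 CPM and no overlap between the libraries. Between 24 h and 48 h, Rictor, the scaffold of mTORC2, rose by 0.64 (edgeR adjusted p = 0.00756) and Prr5, another mTORC2 subunit, fell by 0.31 (adjusted p = 0.0223). As for the 9 genes, the share of called genes in these lists is to be read against the shares for all genes tested, and the lists overlap in function.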

How the data were processed

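The data are 9 poly-A RNA-seq libraries of EGFP-SSC, 3 at each of 0 h, 24 h and 48 h, grouped by their titles. The authors deposited raw counts of reads per Ensembl gene, not normalized. The submitters' processing notes name fastp, HISAT2, featureCounts and GRCm38, and the annotation and strand setting of the counting are not given in the sources used here. Where strand is ignored, reads of overlapping genes cannot be told apart. The authors compared groups with DESeq2.

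Symbols, positions and exon lengths came from GENCODE M21 (GRCm38) and promoters from RefSeq (GRCm38.p6). Each pair of groups was tested over its 6 libraries with edgeR 4.0.16 in R 4.3.3 (filterByExpr, TMM, two-sided quasi-likelihood test), with Benjamini-Hochberg adjustment over all genes tested and a threshold of 0.05. This test returns no SE. The SE given for a log2 fold change is its absolute value over the square root of the F statistic. The 95% intervals were built from that SE with the t distribution. CPM used TMM factors over the 9 libraries, and FPKM the union of exons. Correlations used log2 CPM with a prior count of 2. Ratios and shares were compared with two-sided exact permutation tests. Shared sequence was measured with BLAST 2.17.0 over at least 75 bases at 97% identity. The procedure was tested on simulated data. Replicates of 1 cell line measure the spread between cultures of that line.

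The members and lists were chosen with earlier results of these data known. Named genes are the 9 members, 10 relatives fixed by name (Foxo6, Sesn2, Sesn3, Ddit4l, Tbc1d7, Rictor, Mlst8, Rheb, Akt1s1 and Deptor), for each list and comparison the called gene with the largest rise and the largest fall whose libraries did not overlap and whose mean reached 5 CPM in either group, and the 5 genes most like Ddit4. Of the hypoxia list, 11 of 12 symbols matched. Alternatives were DESeq2 1.42.0, its size factors or library size alone in edgeR, a single fit over the 9 libraries, no expression filter, a minimum of 10 counts per library, a replicate block, offsets for GC content and length (natural splines, 5 and 4 df) with and without the block, the longest transcript as gene length, and each library left out. The other assays of the study were not analysed here.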

Additional observations from a re-analysis of the deposited data

How the results depend on the processing

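The calls of Mtor and Ddit4 in all 3 comparisons and of Sesn1 against 0 h held under all 15 alternatives of each. Rptor at 48 h against 0 h held in 8 of 15, with an adjusted p of up to 0.168, and was lost with no expression filter and with the replicate block besides the libraries named above. Foxo4 at 48 h against 24 h held in 13 of 15 and was lost with all 9 libraries in 1 fit and with GC and length offsets plus the block. Tsc2 at 48 h against 0 h was called in 5 of 15, and Foxo1 at 48 h against 24 h in 2 of 15, with the offsets alone and with the block (adjusted p = 0.0168 and 0.0441). Replicate numbers showed no clear pairing of the samples. Deviations of same-numbered libraries correlated at -0.26, 0.02 and -0.09 between 0 h and 24 h and at 0.09, 0.20 and -0.28 between 0 h and 48 h. Between 24 h and 48 h they correlated at 0.001, -0.06 and 0.10, so no comparison had all of its pairs over 0.1. Libraries with different numbers correlated at -0.39 to 0.38. With 3 libraries per time, these values cannot settle whether the samples were paired. With the replicate block, 3, 3 and 3 of the 9 genes were called, and 3007, 4013 and 2497 genes in all against 4494, 5602 and 3732 without it. With the GC and length offsets, 5 of the 9 were called at 48 h against 24 h, Foxo1 and Rptor being gained. Leaving out each library gave 3 called genes of the 9 each time at 24 h, 3 to 4 at 48 h against 0 h, and 3 each time at 48 h against 24 h.

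Signs turned in 8 cases, none of them a call. Foxo1 at 24 h was -0.0091 without 0 h replicate 2 (-0.0091 to 0.15 over the left-out libraries), Tsc1 at 24 h was 0.017 with at least 10 counts, 0.086 with library size alone and 0.033 without 0 h replicate 2 (-0.059 to 0.033), Foxo3 at 48 h was -0.043 without 0 h replicate 1 and -0.012 without 48 h replicate 2 (-0.043 to 0.11), and Foxo4 at 48 h was 0.086 with the offsets and 0.091 with offsets and block, all against 0 h. Library size alone put the median log2 fold change of all genes at 0.12 and 0.13 against 0 h and the higher share of calls at 57.1% and 52.8%, against 44.5% and 41.2%. It gave 8 called genes in the amino acid list and 4 in the AMPK list at 48 h, and 3 in the p53 list at 24 h. With all 9 libraries in 1 fit, 1043 genes were called at 48 h against 24 h, and leaving out a library gave 1857 to 4356 there, 2607 to 6023 at 24 h and 3471 to 7116 at 48 h against 0 h. The hypoxia list, examined so after its counts were seen, had 5 to 6, 8 to 9 and 7 to 10 lower genes over the alternatives. Depth limits Ddit4l, at 0.69 to 2.46 CPM.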

Other observations

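The mTORC2 scaffold Rictor stood out for its spread at 0 h, with 160, 99.7 and 46.1 CPM in the 3 libraries, whose counts had a mean GC content of 48.69%, 49.72% and 50.38%. Rictor has a GC content of 42.5%. It was at 99.6, 134 and 108 CPM at 24 h and at 179, 155 and 202 CPM at 48 h. Its log2 fold change at 48 h against 0 h was 0.81 (edgeR adjusted p = 0.167) and was 0.58 with GC and length offsets (adjusted p = 0.0246), and its rise between 24 h and 48 h went from 0.64 to 0.38 with those offsets (adjusted p = 0.00744) and was lost with all 9 libraries in 1 fit (adjusted p = 0.333). The ratio of Rptor to Rictor in FPKM was 0.682, 1.05 and 2.50 at 0 h, 1.36, 0.975 and 1.09 at 24 h, and 0.746, 0.920 and 0.666 at 48 h. The 48 h libraries lay below those of 24 h (exact permutation p = 0.1, the smallest possible), and the 0 h libraries spread over both.

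Foxo6 was called at 48 h against 0 h under all 15 alternatives and at 24 h under 14, the exception being the fit without 24 h replicate 3 (adjusted p = 0.0551). Pdk4, a FOXO target that was chosen after its values were seen, rose by 2.27 at 48 h against 0 h (edgeR adjusted p = 0.000556). It did not meet the rule for named genes, a mean of at least 5 CPM in either group and libraries without overlap.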
